A study of Mus musculus with 12 samples.

Results

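The genes described here encode the mitochondrial respiratory chain and ATP synthase, the machinery of oxidative phosphorylation. They were taken by symbol from the authors' merged table: every gene whose symbol begins with Nduf, Uqcr, Atp5, Cox4 to Cox8 or mt-, together with Sdha, Sdhb, Sdhc and Sdhd. The rule found 100 of 13207 genes, of which 87 are nuclear and 13 lie in the mitochondrial genome. The gene expression data are RNA sequencing libraries of CD4+ cells sorted from the thymus of C57BL/6 mice, 7 days after an intraperitoneal dose of tamoxifen at 10 μg per g of body weight, which all 4 groups received. Each group had 3 libraries, named by the letters A, B and D of their titles. The groups were CD73+ newly generated regulatory T cells (Treg, sorted as tdTomato+GFP+CD73+), CD73- newly generated Treg (tdTomato+GFP+CD73-), tdTomato- Treg (tdTomato-GFP+, not divided by CD73) and newly generated conventional T cells (Tconv, tdTomato+GFP-CD73-). GFP stands for the Treg factor Foxp3 and tdTomato for cells marked after tamoxifen; the labels name no reporter or Cre alleles, and they do not say whether the libraries of a group came from separate or pooled animals. The p-values therefore rest on differences among libraries that may be technical in part.

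Complex I (NADH dehydrogenase) and complex II (succinate dehydrogenase) pass electrons to coenzyme Q, complex III (cytochrome bc1) passes them on to cytochrome c, and complex IV (cytochrome c oxidase) gives them to oxygen. Complexes I, III and IV pump protons out of the matrix, and complex V (ATP synthase) lets them return through its membrane part while its F1 head makes ATP. Complex II is encoded in the nucleus alone, whereas the other complexes combine nuclear subunits with a few core subunits translated inside the mitochondrion. Resting lymphocytes make much of their ATP by oxidative phosphorylation, and Treg are known for a reliance on it.

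The authors deposited log2 CPM (read counts per gene adjusted for library size, on a log2 scale) in 2 tables that were scaled separately. One table holds CD73+ and CD73- Treg and the other holds tdTomato- Treg and Tconv, so differences were tested within a table and levels across tables are set side by side only. Both comparisons are of bulk samples, in which fewer cells of a type and less RNA per cell cannot be told apart. Effective depth ran from 11000000 to 21400000 counts in a library. Foxp3 lay between 9.07 and 9.25 log2 CPM in the 9 Treg libraries and between −0.77 and 0.88 in the 3 Tconv libraries, and Nt5e, which encodes CD73, was higher in CD73+ Treg than in CD73- Treg, by 1.75 on the log2 scale (SE 0.093, limma adjusted p = 2.07e-08). Of the 100 genes, 98 passed the filter on low values, which asks for 3 or more libraries at or above 0 log2 CPM. The exceptions were Cox7a1 and Cox6b2. Lars2, a mitochondrial leucyl-tRNA synthetase gene, made up 16.1% of the summed CPM of Tconv replicate B and 22.9% to 32.4% of the other libraries. Whether all reads counted for Lars2 come from its own transcript was not tested. Tconv replicate B stood apart by this share. For named calls that were lost without this library the values without it are given, while ratios of summed CPM include it.

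Between CD73+ and CD73- newly generated Treg, no respiratory gene passed the threshold of an adjusted p under 0.05, in either direction (0 of 98 tested). Over all 11170 genes tested 2.44% passed it, 1.79% as higher and 0.654% as lower. By limma without adjustment, 16 of the 98 had a p under 0.05, as had 1919 of the 11170 genes. With the library letter as a replicate block, 1 of the 98 was higher (Ndufa7) and 1 lower (mt-Co3), while 5.64% of all genes passed. In the authors' deposited table, 0 of these genes were higher and 1, mt-Co3, was lower, against 1.19% of all genes called in either direction there. The nuclear genes lay mostly on the higher side: 65 of 85 (76.5%) had a log2 fold change above 0, against 51.0% of all genes. Their median log2 fold change was 0.11, against 0.007 over all genes, and it stayed between 0.077 and 0.137 in every alternative processing tried, while that of all genes lay between −0.02 and 0.024. In 16 of the 98 genes all CD73+ libraries lay above all CD73- libraries, against 10.0% of all genes, and in 1 they lay below, against 8.18% of all genes.

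The median log2 fold change of nuclear genes was 0.115 in complex I, 0.002 in complex II, 0.09 in complex III, 0.093 in complex IV and 0.11 in complex V. The summed CPM of all nuclear respiratory genes was 3133.7, 3097.6 and 2965.3 in CD73+ replicates A, B and D, against 2898.7, 2976.3 and 2789.7 in CD73- replicates A, B and D. Within each letter the CD73+ library was the higher one, but the groups overlapped, because CD73- replicate B exceeded CD73+ replicate D. The means were 3065.5 ± 88.7 CPM in CD73+ Treg and 2888.3 ± 93.7 CPM in CD73- Treg (SD, n = 3 each), a ratio of 1.061.

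**Figure D1:**
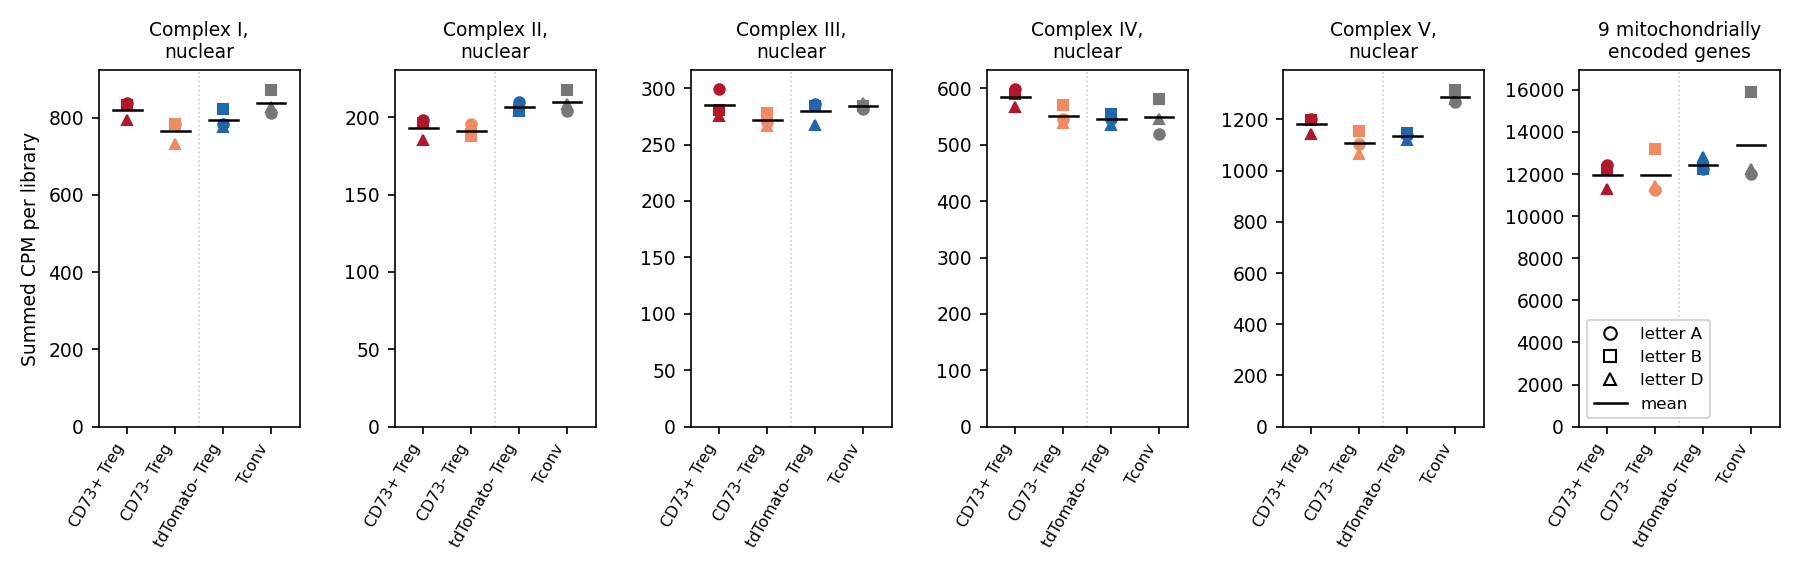
Summed CPM per library (y axis, starting at 0) of the nuclear genes of each complex and of 9 genes of the mitochondrial genome, in the 4 sorted groups (x axis). Points are libraries, their shapes give the letter, and bars are group means. The dotted line parts the tables that were scaled separately. Complex V sits at 1135.5 CPM in tdTomato- Treg and 1287.7 CPM in Tconv on average, and Tconv replicate B is highest for the mitochondrial genes.

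The nuclear genes with the lowest p in each of complexes I, V, IV and III in CD73+ against CD73- Treg are given here, chosen after their values were seen. Ndufa7, an accessory subunit of complex I, had 4.59, 4.56 and 4.31 log2 CPM in CD73+ replicates A, B and D, against 4.08, 4.14 and 4.20 in CD73- Treg. The groups did not overlap, and CD73+ replicate D lay nearest to the CD73- libraries. Its log2 fold change was 0.35 (SE 0.096, limma adjusted p = 0.0698). It passed the threshold with the letter as a replicate block (adjusted p = 0.0485) and without CD73+ replicate D (0.44, adjusted p = 0.035). Atp5e, the epsilon subunit of the F1 central stalk, had 5.20, 5.25 and 5.28 log2 CPM in CD73+ Treg, against 4.78, 4.90 and 4.96 in CD73- Treg. All CD73+ libraries again lay above, with a log2 fold change of 0.36 (SE 0.129, adjusted p = 0.151). Cox7c, a small subunit of complex IV, had 5.14, 5.06 and 5.07 log2 CPM in CD73+ Treg, against 4.78, 5.02 and 4.87 in CD73- Treg, with a log2 fold change of 0.20 (SE 0.076, adjusted p = 0.187). Uqcr11, a small subunit of complex III, had 3.42, 3.29 and 3.21 log2 CPM in CD73+ Treg, against 3.07, 3.08 and 2.74 in CD73- Treg (0.34, SE 0.147, adjusted p = 0.243).

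The 4 genes of complex II had a median log2 fold change of 0.002, and its difference from the other complexes was not tested. Sdha, its flavoprotein, had 6.91, 6.87 and 6.78 log2 CPM in CD73+ Treg, against 6.88, 6.81 and 6.80 in CD73- Treg. Sdhb, its iron-sulfur subunit, was the 1 nuclear gene with all CD73+ libraries below all CD73- libraries: 4.83, 4.82 and 4.84 log2 CPM in CD73+ Treg, against 4.98, 4.93 and 4.89 in CD73- Treg. Its difference was −0.10 on the log2 scale (SE 0.072, limma adjusted p = 0.492). The membrane anchors differed from each other in sign. Sdhc had a log2 fold change of 0.16 (SE 0.091, adjusted p = 0.397) and Sdhd one of −0.02 (SE 0.093, adjusted p = 0.939). None of the 4 passed the threshold.

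In tdTomato- Treg against Tconv, 7 of the 98 genes tested were higher and 20 were lower. Over all 11198 genes tested 52.1% were called, 26.4% as higher and 25.7% as lower, so the share of respiratory genes called, 27.6%, was below the background, and most of that share was on the lower side. The differences were small: the median size of the log2 fold change was 0.168, against 0.293 over all genes. The signed median of the 85 nuclear genes was −0.11, against −0.007 over all genes, and it lay between −0.17 and −0.057 over the alternatives tried (−0.057 without Tconv replicate B), while the median of all genes lay between −0.086 and 0.017. The count depended on the scaling: 5 were higher and 29 lower when libraries were centred on their median, and 6 higher and 27 lower after quantile normalisation. Calls over all genes moved the same way, to 2630 higher and 3386 lower with centring and 2541 higher and 3517 lower with quantile normalisation, against 2956 and 2878 as scaled by the authors. The groups did not overlap in 8 genes above and 27 below, against 30.5% of all genes in each direction and 60.9% in either. By the authors' deposited table, respiratory genes numbering 9 were higher and 21 lower, of which 26 were also called here, against 50.6% of all genes called there. With the letter as a replicate block, 8 were higher and 23 lower, against 55.6% of all genes called. Of the 27 calls, 14 held whichever 1 library was left out. Without Tconv replicate B, 4 genes were higher and 12 lower, and without tdTomato- replicate A or B 4 were higher.

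**Figure D2:**
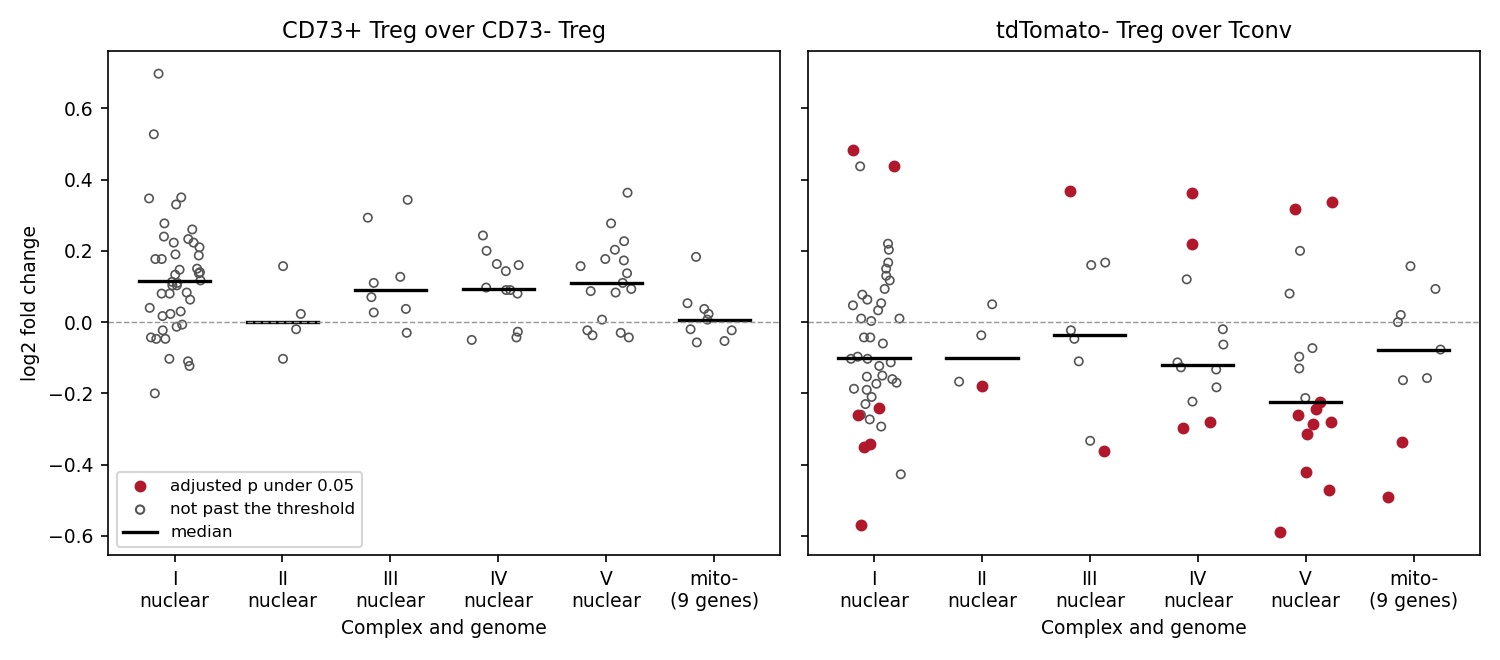
Log2 fold change (y axis) of each tested respiratory gene by complex and genome (x axis), for CD73+ over CD73- Treg (left) and tdTomato- Treg over Tconv (right). Each circle is a gene, filled where the adjusted p is under 0.05, and bars are medians. The 4 mitochondrially encoded genes with an identical nuclear copy are left out. No gene is filled on the left, and on the right the median is lowest in complex V, at −0.223.

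Of the 5 complexes, ATP synthase had the highest share of its nuclear genes called; its difference from the other complexes was not tested. Of its 17 nuclear genes, 2 were higher and 9 lower in tdTomato- Treg than in Tconv (64.7% called, against 52.1% of all genes), with a median log2 fold change of −0.223. Without Tconv replicate B, 1 was higher and 6 lower. Their summed CPM was 1140.6, 1147.2 and 1118.6 in tdTomato- replicates A, B and D, against 1269.3, 1313.2 and 1280.7 in Tconv replicates A, B and D. The groups did not overlap, and the ratio of the means, 1135.5 ± 15.0 and 1287.7 ± 22.8 CPM (SD, n = 3 each), was 0.882. The same ratio was 0.948 for complex I, 0.982 for complex II, 0.984 for complex III and 0.994 for complex IV. In the table scaled separately, complex V genes summed to 1181.0 ± 32.1 CPM in CD73+ Treg and 1107.8 ± 45.1 CPM in CD73- Treg.

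The F1 head of ATP synthase, which binds the nucleotides, moved in both directions by subunit. Atp5b, the catalytic beta subunit, had 8.11, 8.08 and 8.05 log2 CPM in tdTomato- Treg, against 8.31, 8.32 and 8.34 in Tconv. The libraries of each group lay close together and apart from the other group, with a log2 fold change of −0.24 (SE 0.049, limma adjusted p = 0.000533). Atp5c1, the gamma subunit that turns inside the head, had 6.28, 6.34 and 6.25 log2 CPM in tdTomato- Treg, against 6.52, 6.80 and 6.49 in Tconv. It was lower in every tdTomato- library (−0.31, SE 0.079, adjusted p = 0.00312). Atp5d, the delta subunit of the central stalk, went the other way, with 5.86, 5.68 and 5.77 log2 CPM in tdTomato- Treg against 5.46, 5.38 and 5.52 in Tconv. It was higher in every tdTomato- library (0.32, SE 0.081, adjusted p = 0.00365). These 3 calls held whichever 1 library was left out. Atp5a1, the alpha subunit, had a log2 fold change of −0.07 (SE 0.048, adjusted p = 0.218), and that of Atp5e, 0.20 (SE 0.129, adjusted p = 0.209), was −0.01 without Tconv replicate B.

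The peripheral stalk, which keeps the F1 head from turning, was lower in all 4 of its nuclear subunits, while 25.7% of all genes were called lower. Their summed CPM was 195.5, 191.8 and 189.5 in tdTomato- Treg, against 225.9, 274.4 and 235.7 in Tconv, a ratio of 0.784 between the means. Tconv replicate B was the highest library, and the ratio was not taken without it. Atp5f1, the long b subunit, had 6.09, 6.10 and 6.11 log2 CPM in tdTomato- Treg, against 6.47, 6.76 and 6.48 in Tconv. Its log2 fold change was −0.47 (SE 0.081, limma adjusted p = 0.000121), and it was called whichever 1 library was left out. The other 3 stalk genes, Atp5h, Atp5j and Atp5o, fall outside the naming rule and are named because they complete the stalk. Atp5h, the d subunit, had 5.74, 5.73 and 5.74 log2 CPM in tdTomato- Treg, against 5.88, 6.17 and 5.94 in Tconv (−0.26, SE 0.079, adjusted p = 0.0114). Atp5j, coupling factor F6, had 5.29, 5.27 and 5.12 log2 CPM in tdTomato- Treg, against 5.37, 5.71 and 5.46 in Tconv (−0.29, SE 0.094, adjusted p = 0.0169). Atp5o, which joins the stalk to the head, had 5.12, 4.98 and 5.01 log2 CPM in tdTomato- Treg, against 5.21, 5.38 and 5.36 in Tconv (−0.28, SE 0.089, adjusted p = 0.015). In each of the 3 every tdTomato- library lay below every Tconv library, as in 30.5% of all genes. The calls did not hold without Tconv replicate B, where the adjusted p was 0.069 for Atp5h, 0.0994 for Atp5j and 0.0514 for Atp5o. That of Atp5j was also lost without tdTomato- replicate D (0.0789), and that of Atp5o without Tconv replicate D (0.0508) or tdTomato- replicate B (0.0576).

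**Figure D3:**
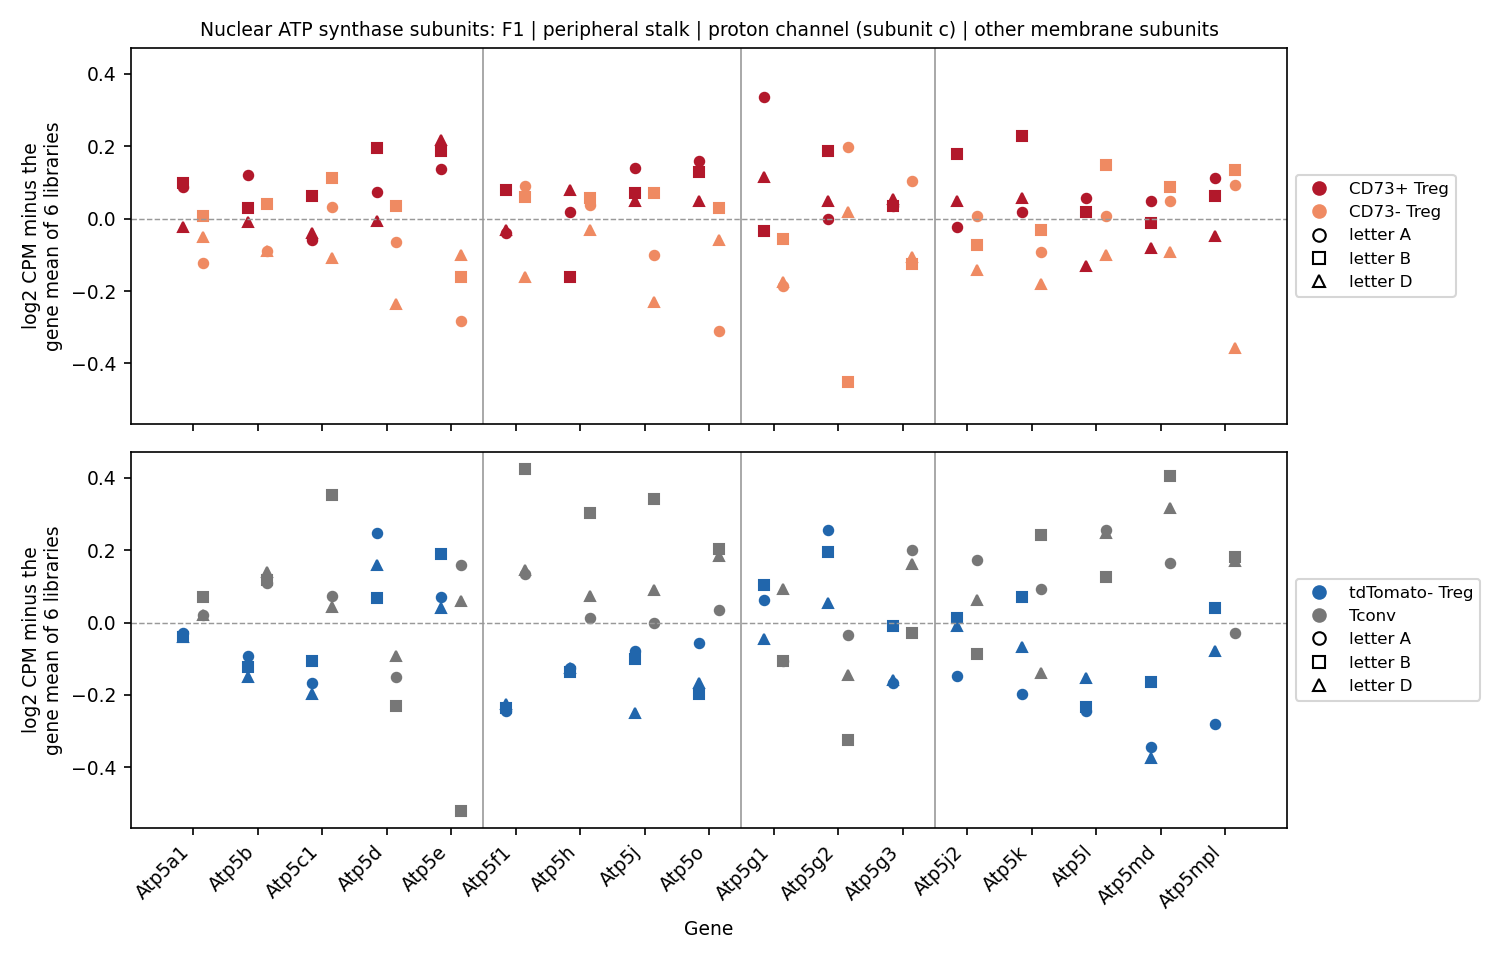
Log2 CPM of the 17 nuclear ATP synthase genes (x axis, by part of the enzyme), shown as the difference from each gene's mean over the 6 libraries of its table (y axis). Upper panel, CD73+ and CD73- Treg; lower panel, tdTomato- Treg and Tconv. Point shapes give the letter. In the lower panel the 4 peripheral stalk genes have every tdTomato- library below every Tconv library, while Atp5d and Atp5g2 lie the other way. These groups do not overlap in 60.9% of all genes.

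In the membrane part, the lowest adjusted p among all respiratory genes belonged to Atp5md, a small subunit (also known as DAPIT) linked to the stability of the enzyme and its dimers. It had 4.11, 4.29 and 4.08 log2 CPM in tdTomato- Treg, against 4.62, 4.86 and 4.77 in Tconv. No libraries overlapped, and the log2 fold change was −0.59 (SE 0.097, limma adjusted p = 7.76e-05). Atp5l, the g subunit at the dimer interface, had 5.53, 5.54 and 5.62 log2 CPM in tdTomato- Treg, against 6.03, 5.90 and 6.02 in Tconv (−0.42, SE 0.076, adjusted p = 0.000197). Both were called whichever 1 library was left out. The e, f and 6.8PL subunits Atp5k, Atp5j2 and Atp5mpl did not pass the threshold, with log2 fold changes of −0.13, −0.10 and −0.21.

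Atp5g1, Atp5g2 and Atp5g3 encode the same mature c subunit of the proton-carrying ring behind different import sequences, and the 3 genes did not move together. Atp5g2 had 5.45, 5.39 and 5.25 log2 CPM in tdTomato- Treg, against 5.16, 4.87 and 5.05 in Tconv (0.34, SE 0.129, limma adjusted p = 0.0373). Atp5g3 had 5.72, 5.88 and 5.73 log2 CPM in tdTomato- Treg, against 6.09, 5.86 and 6.05 in Tconv (−0.22, SE 0.077, adjusted p = 0.0232). The groups of Atp5g2 did not overlap, whereas those of Atp5g3 did, since Tconv replicate B lay at the level of the tdTomato- libraries. Atp5g1 had a log2 fold change of 0.08 (SE 0.110, adjusted p = 0.57). The Atp5g2 call was lost without Tconv replicate B (adjusted p = 0.141) or D (0.0631) and without tdTomato- replicate A (0.121) or B (0.0922). The Atp5g3 call was lost without Tconv replicate A (0.101) or D (0.078) and without tdTomato- replicate A (0.087) or D (0.0773).

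Complex I had 44 nuclear genes tested, of which 2 were higher and 5 lower in tdTomato- Treg than in Tconv. That was 15.9% called, below the 52.1% of all genes, with a median log2 fold change of −0.10. Ndufa6, an accessory subunit that carries an LYR motif and binds the acyl carrier protein, had 4.89, 5.01 and 4.84 log2 CPM in tdTomato- Treg, against 4.35, 4.54 and 4.54 in Tconv. All tdTomato- libraries lay above all Tconv libraries (0.44, SE 0.092, limma adjusted p = 0.000749). Ndufa11, an accessory subunit of the membrane arm, had 4.03, 3.87 and 3.53 log2 CPM in tdTomato- Treg, against 3.49, 2.95 and 3.54 in Tconv. Its groups overlapped (0.48, SE 0.167, adjusted p = 0.0225), and the call was lost without Tconv replicate B (0.30, adjusted p = 0.135) and without tdTomato- replicate A (adjusted p = 0.114) or B (0.0697).

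Among the lower genes of complex I was Ndufs1, the largest core subunit, which holds iron-sulfur clusters of the NADH-oxidising module. It had 5.59, 5.70 and 5.68 log2 CPM in tdTomato- Treg, against 5.82, 6.03 and 5.90 in Tconv (−0.26, SE 0.068, limma adjusted p = 0.0041). Ndufs4, an accessory subunit of the same module whose loss causes Leigh-like disease in mice, had 4.47, 4.44 and 4.73 log2 CPM in tdTomato- Treg, against 4.91, 4.94 and 4.84 in Tconv (−0.35, SE 0.092, adjusted p = 0.00439). In both the groups did not overlap and the calls held whichever 1 library was left out. Outside the naming rule, the remaining lower genes were Ndufaf4, an assembly factor (−0.57, SE 0.151, adjusted p = 0.00463), Ndufa10, an accessory subunit of the membrane arm (−0.34, SE 0.100, adjusted p = 0.00858), and Ndufb5 of the distal membrane arm (−0.24, SE 0.096, adjusted p = 0.0456). The Ndufb5 call was lost without Tconv replicate A or B or tdTomato- replicate A or D, with adjusted p-values of 0.104, 0.148, 0.143 and 0.109 in that order. The other 6 core genes, among them those that bind NADH and the flavin, did not pass the threshold.

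Of the 4 complex II genes, Sdhb was the lower one in tdTomato- Treg, with 4.90, 5.02 and 4.96 log2 CPM against 5.18, 5.18 and 5.06 in Tconv (−0.18, SE 0.072, limma adjusted p = 0.0467). The groups did not overlap, but the call was lost without Tconv replicate A (adjusted p = 0.133) or B (0.119) and without tdTomato- replicate A (0.158) or D (0.0926). Sdha had a log2 fold change of 0.05 (SE 0.057, adjusted p = 0.487), Sdhc one of −0.17 (SE 0.091, adjusted p = 0.138) and Sdhd one of −0.04 (SE 0.093, adjusted p = 0.766). The share of complex II genes called was below the 52.1% of all genes.

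In complex III, 1 of 8 nuclear genes was higher and 1 was lower. Uqcrfs1, the Rieske iron-sulfur protein that takes electrons from coenzyme Q, had 5.25, 5.02 and 5.10 log2 CPM in tdTomato- Treg, against 5.63, 5.35 and 5.48 in Tconv. It was lower in every tdTomato- library (−0.36, SE 0.091, limma adjusted p = 0.00299), whichever 1 library was left out. Uqcr11 had 3.55, 3.46 and 3.14 log2 CPM in tdTomato- Treg, against 3.08, 3.05 and 2.92 in Tconv (0.37, SE 0.147, adjusted p = 0.0466). The groups did not overlap, with tdTomato- replicate D nearest to Tconv. The call was lost without any one of 5 libraries: Tconv replicates A (adjusted p = 0.0656), B (0.0737) and D (0.136) and tdTomato- replicates A (0.184) and B (0.133). It was also lost with quantile normalisation (0.235).

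Complex IV had 12 nuclear genes tested, 2 of them higher and 2 lower (33.3% called, below the 52.1% of all genes). Cox7a2l, which links complex III to complex IV in supercomplexes and of which C57BL/6 mice are known to carry a shortened form, had 7.37, 7.32 and 7.38 log2 CPM in tdTomato- Treg, against 7.14, 7.15 and 7.12 in Tconv. The difference was small and even across libraries (0.22, SE 0.048, limma adjusted p = 0.00109). Cox8a, a small subunit, had 4.96, 5.09 and 4.95 log2 CPM in tdTomato- Treg, against 4.65, 4.56 and 4.70 in Tconv (0.36, SE 0.095, adjusted p = 0.004). Both calls held whichever 1 library was left out. Cox6c had 5.60, 5.63 and 5.56 log2 CPM in tdTomato- Treg, against 5.68, 6.10 and 5.85 in Tconv (−0.28, SE 0.092, adjusted p = 0.0178). Cox7b had 4.95, 4.93 and 4.85 log2 CPM in tdTomato- Treg, against 4.99, 5.46 and 5.17 in Tconv (−0.30, SE 0.106, adjusted p = 0.0274). In both, Tconv replicate B was the highest library. Without it the adjusted p was 0.111 for Cox6c and 0.167 for Cox7b. The Cox6c call was also lost without tdTomato- replicate D (0.0568), and the Cox7b call without tdTomato- replicate B (0.0547) or D (0.0871).

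Several complex IV subunits exist as common and tissue-restricted forms. Cox7a1, the heart and muscle form, was at or below −1.64 log2 CPM in every library, near the level of 3 counts (−2.61 to −1.65), whereas its common form Cox7a2 lay between 4.26 and 4.69. Cox6b2, the testis form, lay between −4.81 and 0.25 log2 CPM, against 5.07 to 5.65 for Cox6b1. These levels are not scaled to transcript length. Cox4i1, Cox6a1, Cox7a2 and Ndufa4 did not pass the threshold in tdTomato- Treg against Tconv, with log2 fold changes of −0.02, −0.18, −0.13 and −0.06. Other paralogues of these subunits were not analysed here.

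Promoters were read because the nuclear genes share factors: nuclear respiratory factor 1 (NRF1), the ETS factor GABPA and YY1 are known to bind many of them. RefSeq windows from 250 bases before to 50 after the start (GRCm38.p6) matched 74 of the 87 nuclear genes, with 79 windows. Both strands were searched for short cores of the motifs, GCATGCG for NRF1, CCGGAAG for ETS factors and AAGATGG for YY1; the last 3 letters of the ETS core can serve as the first 3 of the YY1 core. NRF1 letters were in 16.5% of these windows and in 4.44% of the 21262 windows of all protein-coding genes. ETS letters were in 24.1% and 11.6%, and YY1 letters in 15.2% and 6.24%, in the same order. The letters were chosen after the expression values were seen, and longer spellings of the NRF1 and YY1 motifs were searched first, so the shares depend on the spelling. With the first or the last letter of a core dropped, a choice also made after the data were seen, NRF1 letters were in 21.5% and 19.0% of these windows, against 7.57% and 8.18% of all. ETS letters were then in 44.3% and 36.7%, against 21.1% and 18.7%, and YY1 letters in 22.8% and 19.0%, against 16.8% and 15.8%. A match is a description of sequence, not a bound site. The windows of the 2 higher and 2 lower nuclear genes with the lowest p in tdTomato- Treg against Tconv, among called genes with 1 window, are shown with any motif in capitals: Ndufa6 at chr15:82354242-82354541, Cox7a2l at chr17:83514284-83514583, Atp5md at chr19:47090598-47090897 and Atp5f1 at chr3:105959214-105959513, all on the minus strand and read 5′ to 3′. Ndufa6 holds the NRF1 letters, Atp5md the ETS letters and Atp5f1 the YY1 letters, the last 2 read on the opposite strand, and Cox7a2l holds none of the 3.
Ndufa6: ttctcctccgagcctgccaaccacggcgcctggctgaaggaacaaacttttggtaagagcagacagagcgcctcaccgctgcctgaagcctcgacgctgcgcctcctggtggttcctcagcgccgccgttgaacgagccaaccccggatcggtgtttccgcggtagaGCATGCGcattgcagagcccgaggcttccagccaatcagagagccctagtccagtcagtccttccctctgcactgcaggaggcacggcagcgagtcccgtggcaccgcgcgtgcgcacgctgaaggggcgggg
Cox7a2l: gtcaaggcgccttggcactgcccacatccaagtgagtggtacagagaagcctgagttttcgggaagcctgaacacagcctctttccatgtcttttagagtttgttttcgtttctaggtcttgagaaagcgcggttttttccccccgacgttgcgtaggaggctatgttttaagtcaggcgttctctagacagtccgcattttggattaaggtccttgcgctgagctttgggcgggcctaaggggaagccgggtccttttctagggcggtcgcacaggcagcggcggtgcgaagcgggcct
Atp5md: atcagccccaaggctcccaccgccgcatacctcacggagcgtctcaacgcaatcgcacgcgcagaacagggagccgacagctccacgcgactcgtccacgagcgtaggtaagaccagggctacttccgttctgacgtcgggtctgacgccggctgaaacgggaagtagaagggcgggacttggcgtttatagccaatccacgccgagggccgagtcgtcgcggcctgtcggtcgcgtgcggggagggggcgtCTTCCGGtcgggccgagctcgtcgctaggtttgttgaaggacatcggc
Atp5f1: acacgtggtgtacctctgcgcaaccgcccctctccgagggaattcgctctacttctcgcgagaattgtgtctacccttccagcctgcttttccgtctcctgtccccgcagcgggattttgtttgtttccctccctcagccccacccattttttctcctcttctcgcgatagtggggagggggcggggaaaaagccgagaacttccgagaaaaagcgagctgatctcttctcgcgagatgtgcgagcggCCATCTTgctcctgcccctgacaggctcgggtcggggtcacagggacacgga

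The 13 genes of the mitochondrial genome encode 7 subunits of complex I, 1 of complex III, 3 of complex IV and 2 of complex V. Per kilobase of transcript, mt-Co1, the catalytic subunit of complex IV, had the highest mean level in each group: 3340 ± 137 CPM per kilobase in CD73+ Treg, 3290 ± 211 in CD73- Treg, 3650 ± 111 in tdTomato- Treg and 3870 ± 488 in Tconv (SD, n = 3 each). mt-Cytb, the cytochrome b of complex III, was second, at 1680 ± 73.8 in CD73+ Treg, 1750 ± 162 in CD73- Treg, 1610 ± 55.4 in tdTomato- Treg and 1820 ± 353 in Tconv. The complex I genes mt-Nd1 and mt-Nd4 and the complex V gene mt-Atp8 followed at 1070 to 1370 CPM per kilobase, and their order was not tested. mt-Nd6, the 1 protein-coding gene on the other strand, had 187 ± 28.5 in CD73+ Treg, 194 ± 28.1 in CD73- Treg, 167 ± 8.75 in tdTomato- Treg and 243 ± 83.8 in Tconv. mt-Atp8 overlaps mt-Atp6, mt-Nd4l overlaps mt-Nd4, and mt-Nd6 lies beside mt-Nd5 on the opposite strand, and the strand setting of the counting is not given in the sources used here, so the level of each of these genes is uncertain.

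mt-Co2 and mt-Co3, core subunits of complex IV, did not behave like their neighbours. mt-Co2 had −4.96, −4.95 and 5.59 log2 CPM in CD73+ replicates A, B and D, against 6.12, 4.12 and −4.46 in CD73- Treg. It had 5.12, 3.41 and 6.09 log2 CPM in tdTomato- Treg, against 4.11, −5.42 and 5.42 in Tconv. The 4 values below −4 are the level of no count in those libraries, while the same libraries held more than 12 log2 CPM of mt-Co1. mt-Co3 had 0.00, −0.04 and 5.23 log2 CPM in CD73+ Treg, against 5.38, 5.18 and 5.64 in CD73- Treg, and 5.52, 0.03 and 5.15 in tdTomato- Treg, against 7.01, 4.80 and 7.51 in Tconv. Within groups these values fell into high and low libraries that cut across the letters. Over the 12 libraries the range was 11.54 for mt-Co2, 7.55 for mt-Co3 and 2.18 for mt-Atp6, which encodes the proton channel subunit of complex V, against 0.41 to 1.15 for the other 10 genes.

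These 3 genes and mt-Nd4l are identical over their length to annotated nuclear pseudogenes on chromosome 1. mt-Co2 matched Gm28661 over 681 of 684 bases with 0 mismatches, mt-Co3 matched Gm28437 over 783 of 784, mt-Atp6 matched Gm10925 over 678 of 681 and mt-Nd4l matched Gm10222 over 294 of 297. mt-Nd3 differed from Gm28438 at 1 of 345 bases, and mt-Nd4 shared 63.6% of its length with Gm28439, with 0 mismatches. The authors' tables list no annotated pseudogene at all, so the absence of these copies does not show where their reads went. Reads of these genes could have been given to either place, and how the reads were divided was not tested. The levels of the 4 genes are therefore uncertain. As an example, 90 bases of mt-Co2 and mt-Co1 (GRCm38) are set beside nuclear copies, with capitals where a copy differs. Each window was picked for the most differences, from Gm13341 for mt-Co2 and from Gm13340 for mt-Co1. Other stretches therefore tell these copies apart no better. mt-Co1 also matched Gm29216 on chromosome 1 over 483 bases, 31.3% of its length, with 1 mismatch, and that copy is not shown. The windows are mt-Co2 at chrM:7457-7546 and mt-Co1 at chrM:5772-5861 on the plus strand, Gm28661 at chr1:24615032-24615121, Gm13341 at chr2:22587441-22587530 and Gm13340 at chr2:22589114-22589203 on the minus strand. Gm28661 differs from mt-Co2 at 0 positions and Gm13341 at 7, and Gm13340 differs from mt-Co1 at 5.
mt-Co2: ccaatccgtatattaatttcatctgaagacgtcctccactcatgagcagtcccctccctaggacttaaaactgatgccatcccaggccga
Gm28661: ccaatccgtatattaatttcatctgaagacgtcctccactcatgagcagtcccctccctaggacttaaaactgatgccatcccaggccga
Gm13341: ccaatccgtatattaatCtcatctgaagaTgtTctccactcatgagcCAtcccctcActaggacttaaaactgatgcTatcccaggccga
mt-Co1: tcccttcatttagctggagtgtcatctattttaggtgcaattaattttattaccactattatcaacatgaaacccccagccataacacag
Gm13340: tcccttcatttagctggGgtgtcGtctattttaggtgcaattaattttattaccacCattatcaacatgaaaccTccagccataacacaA

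**Figure D4:**
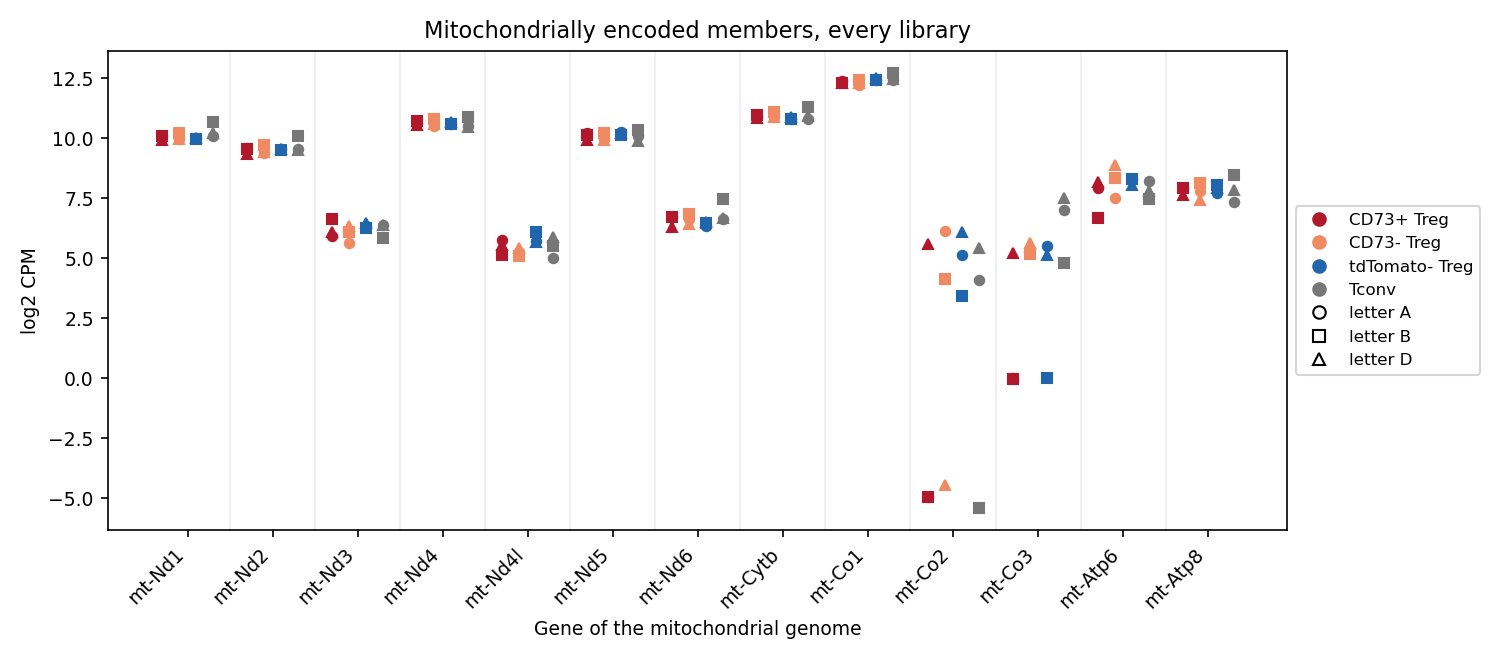
Log2 CPM (y axis) of the 13 genes of the mitochondrial genome (x axis) in every library. Colours are the 4 groups, from left to right CD73+ Treg, CD73- Treg, tdTomato- Treg and Tconv, and shapes are letters. mt-Co2 and mt-Co3 range over 11.54 and 7.55 log2 units, and Tconv replicate B lies highest for mt-Nd1, mt-Nd6 and mt-Cytb.

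In CD73+ against CD73- Treg, none of the 13 passed the threshold, and their median log2 fold change was −0.02. It was 0.007 over the 9 genes without an identical copy, a subset chosen after the values were seen. mt-Co3 had a log2 fold change of −3.67 (SE 1.31, limma adjusted p = 0.154). It passed with the letter as a replicate block (adjusted p = 0.0129) and without CD73+ replicate D (−5.42, adjusted p = 0.025), and the authors' deposited table gives −3.58 with an adjusted p of 0.0223. mt-Co2 had −3.37 (SE 2.95, adjusted p = 0.604) and mt-Atp6 −0.63 (SE 0.326, adjusted p = 0.337). The other 10 lay between −0.06 for mt-Cytb and 0.24 for mt-Nd4l.

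In tdTomato- Treg against Tconv, 2 of the 13 were lower and 0 higher (15.4% called, below the 52.1% of all genes). mt-Nd1, a core subunit of the proton-pumping arm of complex I, had 10.00, 9.97 and 10.03 log2 CPM in tdTomato- Treg, against 10.09, 10.68 and 10.24 in Tconv (−0.34, SE 0.108, limma adjusted p = 0.0154). mt-Nd6 had 6.35, 6.45 and 6.50 log2 CPM in tdTomato- Treg, against 6.64, 7.46 and 6.67 in Tconv (−0.49, SE 0.169, adjusted p = 0.0223). In neither gene did the groups overlap, and 30.5% of all genes also lay fully below. Tconv replicate B was the highest library in both. Without it the log2 fold change was −0.165 for mt-Nd1 (adjusted p = 0.0747) and −0.22 for mt-Nd6 (adjusted p = 0.133). The mt-Nd6 call was also lost without tdTomato- replicate A (0.0725) or B (0.0501). The summed CPM of the 9 genes without an identical copy was 12224.8, 12231.7 and 12794.1 in tdTomato- Treg, against 11981.0, 15895.8 and 12252.1 in Tconv. The groups overlapped, and Tconv replicate B, the library with the lowest share of Lars2, was the highest of all.

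The remaining mitochondrial genes showed no call in this comparison in the fit to all libraries. The authors' deposited table gives mt-Co3 as lower (adjusted p = 0.0478) and mt-Atp6 as higher (0.0258). mt-Co1 had a log2 fold change of −0.08 (SE 0.076, limma adjusted p = 0.425), mt-Cytb −0.16 (SE 0.098, adjusted p = 0.176), mt-Nd2 −0.16 (SE 0.120, adjusted p = 0.295) and mt-Nd5 0.09 (SE 0.101, adjusted p = 0.463). mt-Nd3 had 0.16 (SE 0.183), mt-Nd4 0.00 (SE 0.093), mt-Nd4l 0.36 (SE 0.185) and mt-Atp8 0.02 (SE 0.210). mt-Co2 had 3.50 (SE 2.95, adjusted p = 0.341), mt-Co3 −2.87 (SE 1.31, adjusted p = 0.0771) and mt-Atp6 0.41 (SE 0.326, adjusted p = 0.313). With the letter as a replicate block mt-Co3 was lower (adjusted p = 0.00623), as it was without Tconv replicate B (0.0413) or tdTomato- replicate A (0.0361). mt-Cytb was lower without Tconv replicate A (0.0246). mt-Nd4l was higher without Tconv replicate D (0.0117) or letter D (0.0231). Without letter B mt-Nd4 (0.0331) and mt-Nd5 (0.0312) were higher. mt-Co1 was higher with quantile normalisation (0.0492), and mt-Atp6 with only the 2 groups compared (0.0337).

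Nuclear respiratory genes can also share reads with pseudogenes. At 98% identity over at least 200 bases, 12 of 87 had an annotated pseudogene copy, among them 5 of the 25 nuclear genes called in tdTomato- Treg against Tconv: Cox7a2l, Atp5f1, Atp5g2, Atp5h and Atp5l. Their levels are uncertain to that extent, and the part of such copies in the differences was not tested.

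Genes that serve the chain were examined as lists. Of 44 assembly factors outside the symbol rule, 2 were higher and 12 lower in tdTomato- Treg than in Tconv, with a median log2 fold change of −0.127. That was 31.8% called, against 52.1% of all genes. Without tdTomato- replicate D, Tconv replicate A or Tconv replicate B, 8 were lower. Sdhaf1, which helps insert the iron-sulfur clusters of Sdhb, had 5.46, 5.19 and 5.13 log2 CPM in tdTomato- Treg, against 3.95, 3.92 and 3.98 in Tconv (1.31, SE 0.092, limma adjusted p = 3.3e-09). Acad9, a complex I assembly factor, was higher by 0.27 (SE 0.106, adjusted p = 0.0398). Cox10, which makes heme for complex IV, had 3.67, 3.76 and 3.68 log2 CPM in tdTomato- Treg, against 4.91, 4.61 and 4.83 in Tconv (−1.08, SE 0.159, adjusted p = 2.54e-05), and Cox16, another complex IV factor, was lower (−0.58, SE 0.123, adjusted p = 0.000876). In CD73+ against CD73- Treg, 0 of the 44 passed. Of 3 genes for cytochrome c, cytochrome c1 and the ATP synthase inhibitor, Atpif1, the inhibitor, was higher in tdTomato- Treg (0.37, SE 0.142, adjusted p = 0.0381) and Cycs, cytochrome c, was lower (−0.26, SE 0.104, adjusted p = 0.0456). Sdhaf1, Cox10 and Cox16 kept their calls without any 1 library. Acad9 lost its call without each of the 6 libraries in turn (adjusted p = 0.0522 to 0.163). Atpif1 lost it without tdTomato- replicate B (0.109) or D (0.0983) or Tconv replicate A (0.204) or D (0.0596), and Cycs without any 1 library (0.0633 to 0.158) other than Tconv replicate A.

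Of 17 genes of the tricarboxylic acid cycle, which feeds the chain with NADH and succinate, 2 were higher and 9 lower in tdTomato- Treg than in Tconv (median −0.193), 64.7% called against 52.1% of all genes. Idh2, the NADP-linked mitochondrial isocitrate dehydrogenase, had 3.82, 3.90 and 3.91 log2 CPM in tdTomato- Treg, against 5.04, 5.06 and 5.11 in Tconv (−1.19, SE 0.090, limma adjusted p = 8.77e-09). Pdhb, of pyruvate dehydrogenase, was lower (−0.51, SE 0.059, adjusted p = 1.78e-06), while Suclg2, of succinyl-CoA ligase, was higher (0.46, SE 0.073, adjusted p = 5.79e-05), as was Idh3g (0.23, SE 0.077, adjusted p = 0.0177). Suclg2 was also the 1 gene of this list higher in CD73+ than in CD73- Treg, with 5.56, 5.65 and 5.42 log2 CPM against 5.19, 5.17 and 5.26 (0.34, SE 0.073, adjusted p = 0.0223). Of 13 coenzyme Q genes, Coq8a, a kinase-like protein of the synthesis complex, was the 1 higher in CD73+ Treg, with 3.48, 3.43 and 3.22 log2 CPM against 2.92, 2.55 and 2.64 in CD73- Treg (0.67, SE 0.144, adjusted p = 0.0211). In tdTomato- Treg against Tconv, 4 of the 13 coenzyme Q genes were called, against 52.1% of all genes. Of them 2 were higher, Coq8a (0.94, adjusted p = 3.53e-05) and Coq10b (0.47, adjusted p = 0.0143), and 2 lower, Coq7 (−1.33, adjusted p = 0.000558) and Pdss1 (−0.57, adjusted p = 0.00979). In Suclg2 and Coq8a every CD73+ library lay above every CD73- library, as in 10.0% of all genes. Of all genes 2.44% passed the threshold in that comparison, and neither call held with each library left out in turn. Suclg2 was lost there when CD73+ replicate A (adjusted p = 0.0877), CD73+ replicate B (0.125) or CD73- replicate A (0.0639) was left out, with log2 fold changes of 0.28 to 0.33. Coq8a was lost when CD73+ replicate A (0.097), CD73+ replicate B (0.093) or CD73- replicate D (0.0668) was left out, with log2 fold changes of 0.62 to 0.65. In the second comparison Idh3g was lost without tdTomato- replicate B (0.0966) or Tconv replicate D (0.067), and Coq10b without tdTomato- replicate D (0.0784) or Tconv replicate B (0.0804).

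The lists for mitochondrial DNA and RNA, nuclear regulators and carriers in tdTomato- Treg against Tconv stand beside 52.1% of all genes called. Of 16 genes for maintenance and transcription of the mitochondrial genome, 2 were higher and 4 lower (37.5% called, median −0.135). The lower calls of this list numbered 2 without tdTomato- replicate A, Tconv replicate A or Tconv replicate B. Polg and Polg2, subunits of its DNA polymerase, were higher by 0.22 (SE 0.064, limma adjusted p = 0.00955) and 0.34 (SE 0.110, adjusted p = 0.0171), whereas Ssbp1, which binds single-stranded DNA, and Tfam, which packages the genome and starts its transcription, were lower (−0.54, SE 0.098, adjusted p = 0.000189, and −0.33, SE 0.077, adjusted p = 0.00188). Of 18 genes for mitochondrial RNA processing, 0 were higher and 6 lower (33.3% called, median −0.168). The lower calls numbered 2 without tdTomato- replicate A or Tconv replicate D, 3 without tdTomato- replicate D or Tconv replicate B, and 4 without tdTomato- replicate B or Tconv replicate A. The 6 included Trmt10c of mitochondrial RNase P (−0.62, adjusted p = 0.000276) and the poly(A) polymerase Mtpap (−0.22, adjusted p = 0.00739). Of 12 nuclear regulators, 3 were higher, among them Hif1a (1.16, SE 0.061, adjusted p = 7.41e-11) and Myc (0.72, SE 0.085, adjusted p = 2.19e-06), and 3 lower, among them Pprc1 (−0.36, adjusted p = 0.000247) and Yy1 (−0.19, adjusted p = 0.0114). Of 6 adenine nucleotide carriers and outer membrane pores, Slc25a3, which imports phosphate, and Slc25a4 were higher (0.24 each, adjusted p = 0.00946 and 0.019), and Slc25a5, an ADP/ATP carrier, and Vdac1 were lower (−0.59, adjusted p = 3.5e-08, and −0.21, adjusted p = 0.0107). Of the calls named in these 4 lists, Polg2 was lost without tdTomato- replicate A (adjusted p = 0.0505) or D (0.0585) or Tconv replicate A (0.0715) or B (0.0891). Slc25a4 was lost without tdTomato- replicate B (0.0738) or Tconv replicate A (0.0585) or D (0.0634), and Slc25a3 without tdTomato- replicate D (0.0506) or Tconv replicate B (0.054). Yy1 was lost without Tconv replicate B (0.0506). In CD73+ against CD73- Treg 0 genes of these 4 lists passed the threshold. With the letter as a replicate block Myc (0.29, SE 0.061, adjusted p = 0.00972) and Slc25a4 (0.31, SE 0.068, adjusted p = 0.0115) were higher there, against 0.0935 and 0.052 without the block.

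Markers of other cell types were called in the second comparison too. The counts of these short lists stand beside 52.1% of all genes called there. Of 8 myeloid and dendritic markers tested, 5 were higher, among them Cst3 and Lyz2, and 1 was lower (Itgam), with 35.1 to 47.0 summed CPM in tdTomato- Treg against 24.2 to 26.5 CPM in Tconv. The 5 higher calls became 1 without tdTomato- replicate A and 3 without tdTomato- replicate D or Tconv replicate B, and 1 after quantile normalisation. B cell markers (1 of 2 tested higher, Cd79b) summed to 7.89 to 10.3 CPM in tdTomato- Treg against 3.47 to 4.85 CPM in Tconv, and thymic epithelial markers (1 of 1 higher, Epcam) to 5.91 to 8.24 against 2.65 to 2.92 CPM. Erythroid markers (2 of 5 higher, Hba-a2 and Hbb-bs) summed to 91.0 to 144 CPM against 67.2 to 107 CPM. Innate-like T and NK markers (4 of 5 higher, among them Nkg7 and Eomes, and Zbtb16 lower) summed to 25.1 to 26.7 CPM against 11.7 to 13.8 CPM. Stromal and endothelial markers (1 of 2 higher, Col1a2) summed to 154.5 to 184.6 CPM against 168.1 to 180.0 CPM. Of the 5 genes summed only these 2 were tested, and the other tested gene, which was not called, makes up most of the Tconv sum. Col1a2 was at 0 in every Tconv library, so it passed the filter on low values only through other groups. Its call was partly set by that filter, and nothing is drawn from it. Double-positive and CD8 thymocyte markers (2 of 6 higher, Arpp21 and Rag1, and Cd8b1 lower) summed to 51.7 to 68.7 CPM against 46.7 to 50.9 CPM. Of 8 CD4 T cell and Treg markers tested, 4 were higher and 4 lower. They summed to 4627.2 to 4803.6 CPM in tdTomato- Treg against 1725.3 to 1973.3 CPM in Tconv. The defining CD4 T cell gene Cd4, 1 of the 4 lower, was present in all libraries (−0.84, SE 0.057, limma adjusted p = 2.17e-09). In CD73+ against CD73- Treg, 2 of 5 innate-like markers were higher (Nkg7 and Zbtb16; 18.3 to 19.6 CPM against 10.3 to 16.2 CPM) and 1 of 6 thymocyte markers was lower (Aqp11; 29.5 to 35.2 CPM against 37.6 to 96.8 CPM). Of all genes, 2.44% were called in CD73+ against CD73- Treg, and 5.64% with the replicate block. With the block Cst3 was higher there (0.44, adjusted p = 0.0499) and Rag1 lower (−1.31, adjusted p = 0.0265). No marker of the 8 lists was at 0 in every library of a group except Flt3 and Cdh5 in tdTomato- Treg and Col1a2 in Tconv. Lyz2 lost its call without tdTomato- replicate A (adjusted p = 0.0978), Hbb-bs without tdTomato- replicate B (0.0592) and Aqp11 without any 1 library (0.069 to 0.123) other than CD73- replicate D. The part of such cells in the respiratory gene differences was not tested.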

How the data were processed

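Per the labels' protocols, RNA of sorted thymic CD4+ cells was extracted with TRIzol and the KAPA RNA HyperPrep kit was used for libraries. STAR, RSEM and limma, with the build mm10, come from the submitters' processing notes; their versions are not given in the sources used here. Log2 values for each gene in each library were deposited by the authors (CPM with an offset of 0.5 count, as read from the values) in 2 tables filtered and scaled separately, together with log2 fold changes, a moderated t score per gene, p-values and adjusted p-values. No column of per-library values was left without a sample.

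Here limma 3.58.1 (R 4.3.3) was fitted to the deposited log2 values of all 12 libraries, with 4 group means, a trend and no block. Genes at or above 0 log2 CPM in 3 or more libraries were tested, two-sided, with Benjamini-Hochberg adjustment over all genes of a comparison. The fit was tested on simulated data with 200 genes changed. For CD73+ against CD73- Treg, 16% of log2 changes of 0.25 and 44% of those of 0.5 were called. For tdTomato- Treg against Tconv these shares were 22% and 54%. False calls made up 4.3% and 6.6% of all calls, in the same order. Most changes of the smaller size would thus be missed at this setting. The comparisons share no library but share the estimate of spread. A count of 0 allows up to 3 counts, a log2 CPM of −2.61 to −1.65; this covers counting error only. Summed CPM add the back-transformed values. Of 13207 gene IDs, 13077 matched GENCODE M21 (GRCm38, the build of mm10), including all 100 respiratory genes; transcripts were aligned with blastn.

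The members and gene lists were chosen with earlier results of these data known. The naming rule takes all mitochondrially encoded genes, up to 8 nuclear genes per direction and comparison by p, common and tissue-restricted paralogues, complex II, and up to 2 genes per list and direction. Over 9942 genes at or above 0 log2 CPM in all libraries, deviations from group means correlated between same-letter libraries at 0.146, 0.266 and 0.222 for CD73+ and CD73- Treg, and at 0.117, 0.114 and 0.054 for tdTomato- Treg and Tconv. Over 11167 genes tested the values for CD73+ and CD73- Treg were 0.11, 0.082 and 0.058. In both gene sets each CD73+ and CD73- library's deviations correlated best with those of its own letter. For these 2 groups only the size of the correlations depended on the genes used. For tdTomato- Treg and Tconv the best match depended on them too. Over the 9942 genes Tconv replicate D correlated better with tdTomato- replicate A (0.065) than with tdTomato- replicate D (0.054). The labels do not say what libraries of a letter share. The counts come from the fit without the block, and values with the block are given beside those it changed in CD73+ against CD73- Treg. Alternatives were the filter, the offset, 3 other scalings, the 2 compared groups alone, no trend, the letter as a replicate block, and leaving out each library or letter.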

Additional observations from a re-analysis of the deposited data

How the results depend on the processing

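For CD73+ against CD73- Treg, 273 genes passed the threshold. The count was 146 with only the 2 groups compared, 107 with no trend, 630 with the letter as a replicate block, 92 to 360 with 1 library left out, 23 without letter A and 43 without letter D. Higher and lower calls numbered 200 and 73, against 165 and 99 when libraries were centred on their median, 98 and 9 with no trend, and 371 and 259 with the block. Respiratory genes called higher numbered 0, and 0 to 1 with 1 library left out; the same counts held for lower. With the block 1 was higher (Ndufa7) and 1 lower (mt-Co3). The block changed no other respiratory call there, and gained Myc, Slc25a4, Cst3 and Rag1 among the listed genes. For tdTomato- Treg against Tconv, 7 respiratory genes were higher, 4 to 9 with 1 library left out and 3 without letter A, and 20 were lower, 12 to 19 with 1 library left out, 12 without letter B and 13 without letter D. Centring on the library median gave 5 higher and 29 lower, and quantile normalisation 6 and 27. With the block, 8 were higher and 23 lower, 6229 genes passed in all, and over 11167 genes each library's deviations correlated best with those of its own letter (0.038, 0.103 and 0.068), a hint from the data only. Over 9942 genes this did not hold for Tconv replicate D, which correlated best with tdTomato- replicate A (0.065, against 0.054 for its own letter). The count of all genes was 5834, and 5125 to 5380 with 1 library left out. Of the 27 respiratory calls, 11 held in all 18 alternatives, and none of the 27 changed sign. Where a call was lost, the cause was not tested beyond the library left out. Libraries at 0 for mt-Co2 limit its fold changes, which have no stable value.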
